A study of Mus musculus with 9 samples.

Results

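The Egr, Nr4a and Klf early response genes described here are Egr1, Egr2, Egr3, Nr4a1, Nr4a2, Nr4a3, Klf2, Klf4, Klf6 and Zfp36. They were taken by symbol, and every Affymetrix probe set annotated to 1 of these symbols alone was taken, which gave 24 probe sets of 34958 probe sets with a single gene, or 10 genes of 18194. RNA from mouse mammary cells was hybridized to 9 arrays in 3 groups, each with 3 biological replicas lettered A, B and C. LD cells (Lum in the labels) were luminal differentiated cells that were sorted by FACS and used fresh, and came from adult virgin C57BL/6J females unless another strain was specified. MaSC-derived organoids (Org) were grown from FACS-purified mammary stem cells, and yMaSC-derived organoids (yOrg) from LD cells that had received lentiviral vectors for doxycycline-inducible YAP and rtTA, had been treated with doxycycline, and were then expanded as organoids without it. Both kinds of organoid grew in Matrigel with EGF, bFGF, heparin, noggin and R-Spondin1, whereas LD cells were not cultured. Cell of origin, culture and the route from tissue to lysate therefore cannot be told apart when organoids are compared with LD cells.

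Early response genes are transcribed within minutes of a growth factor, serum, cytokine or stress signal, without new protein synthesis, because the factors that act on their promoters are already in the cell. ERK signalling through serum response factor (SRF) and its ternary complex partners, and cAMP and calcium signalling through CREB, are the classical routes. Most of the mRNAs are short-lived, and tissue dissociation and cell sorting are themselves known to induce many of them. Egr1 to Egr3 are zinc finger factors that bind GC-rich sites, Nr4a1 to Nr4a3 are orphan nuclear receptors, and Klf2, Klf4 and Klf6 are Krüppel-like zinc finger factors with known roles in endothelial, epithelial and stromal differentiation. Zfp36, or tristetraprolin, is induced by the same signals and acts after transcription, by binding AU-rich elements in cytokine and early response mRNAs and promoting their decay.

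The promoters of these genes were searched for elements of the factors named above, and 4 of them are printed so that the letters stand beside the values. RefSeq starts (GRCm38.p6) were on hand for 8 of the 10 genes, with 5 starts for Egr2. Egr1 and Egr3 had no start on hand and were not searched. Windows from 250 bases before to 50 bases after each start were searched on both strands for the CArG box bound by SRF, the cAMP response element TGACGTCA and its part TGACG, the Egr element GCGNGGGCG, the Nr4a element AAAGGTCA and the Klf element CACCC. A CArG box was found at Egr2 and Zfp36, against 1.81% of all 27025 genes with such windows, where a gene counts if any of its windows holds the letters. TGACG was found at 6 genes (Egr2, Klf2, Klf4, Nr4a1, Nr4a2 and Nr4a3), against 23% of all genes, with 4 matches each at Nr4a1, Nr4a2 and Nr4a3. The full TGACGTCA was found at 0 of the 8 genes (2.03% of all genes), and so was AAAGGTCA (1.7%). GCGNGGGCG was present at 5 genes (Klf2, Klf4, Nr4a1, Nr4a2 and Zfp36; 6.27% of all genes) and CACCC at 4 (Egr2, Klf2, Nr4a2 and Nr4a3; 59.8%). These matches describe the letters only. Below are the 250 bases that end just before the annotated gene, read 5′ to 3′ along the gene, for Klf4 and Klf2, the members with the largest differences, for Nr4a2, with 4 TGACG matches, and for Zfp36, with its CArG box. Capitals mark CArG boxes, TGACG and GCGNGGGCG on either strand, so that CGTCA is TGACG on the other strand.
Klf4 (chr4:55532476-55532725, minus strand): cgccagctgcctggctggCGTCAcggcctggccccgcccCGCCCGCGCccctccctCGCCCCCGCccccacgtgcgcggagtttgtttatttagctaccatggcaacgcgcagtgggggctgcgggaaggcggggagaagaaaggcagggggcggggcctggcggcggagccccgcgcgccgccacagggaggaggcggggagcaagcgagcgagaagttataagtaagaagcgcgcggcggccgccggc
Klf2 (chr8:72318812-72319061, plus strand): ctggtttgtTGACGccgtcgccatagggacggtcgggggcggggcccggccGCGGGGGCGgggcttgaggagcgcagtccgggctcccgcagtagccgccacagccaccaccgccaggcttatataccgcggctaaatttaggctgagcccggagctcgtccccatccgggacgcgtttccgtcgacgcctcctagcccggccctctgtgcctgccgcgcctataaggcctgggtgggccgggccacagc
Nr4a2 (chr2:57124004-57124253, minus strand): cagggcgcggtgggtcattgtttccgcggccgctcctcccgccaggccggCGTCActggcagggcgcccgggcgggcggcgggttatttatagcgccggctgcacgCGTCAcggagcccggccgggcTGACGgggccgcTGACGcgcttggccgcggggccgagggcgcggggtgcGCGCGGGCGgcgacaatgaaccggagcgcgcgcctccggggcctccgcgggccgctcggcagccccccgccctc
Zfp36 (chr7:28379229-28379478, minus strand): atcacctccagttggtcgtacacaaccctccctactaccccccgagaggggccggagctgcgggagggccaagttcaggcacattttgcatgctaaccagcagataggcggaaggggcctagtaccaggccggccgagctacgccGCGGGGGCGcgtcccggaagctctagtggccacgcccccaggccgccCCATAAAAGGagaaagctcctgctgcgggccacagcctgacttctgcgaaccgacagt
Stretches of 30 bases around the Egr2 CArG boxes, which lie inside the annotated gene (chr10:67534469-67542188), are given in the same way, the second with a TGACG match beside it.
Egr2 (chr10:67537489-67537518, plus strand): cttctCCTTTTTTGGaaagtctcggagaac
Egr2 (chr10:67537792-67537821, plus strand): tcagtCCATATATGGgcagcgaCGTCAcgg

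Klf4, Klf2, Klf6, Zfp36, Egr3, Nr4a1, Egr1, Nr4a2 and Egr2 were lower in both kinds of organoid than in LD cells, and Nr4a3 was lower by 1 of its 3 probe sets. With 1 probe set a gene (that with the highest mean), limma called 9 of the 10 genes lower in MaSC-derived organoids at an adjusted p below 0.05, where 15.2% of all genes were called lower, and 0 higher, where 22.1% were. In yMaSC-derived organoids the counts were again 9 lower (14.3% of all genes) and 0 higher (21.6%). The median of the 10 log2 differences was -2.89 for MaSC-derived and -2.84 for yMaSC-derived organoids, beside -0.02 and -0.01 over all genes. Both comparisons use the same LD arrays, so they are not independent of each other. The members were chosen with earlier results of these data known, so the contrast with all genes is descriptive only.

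Counted by probe set, 21 of 24 were called lower in MaSC-derived organoids (16.0% of all probe sets) and 22 of 24 in yMaSC-derived organoids (15.4%). None was called higher in either comparison, where 19.9% and 19.4% of all probe sets were, and all 24 differences were below 0 in both. In 22 of the 24, the 3 LD arrays lay above all 6 organoid arrays, a separation seen in 18.1% of all probe sets. The 2 that overlapped were Nr4a3 probe sets. Probe sets of 1 gene share their RNA and are not replicates.

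**Figure D1:**
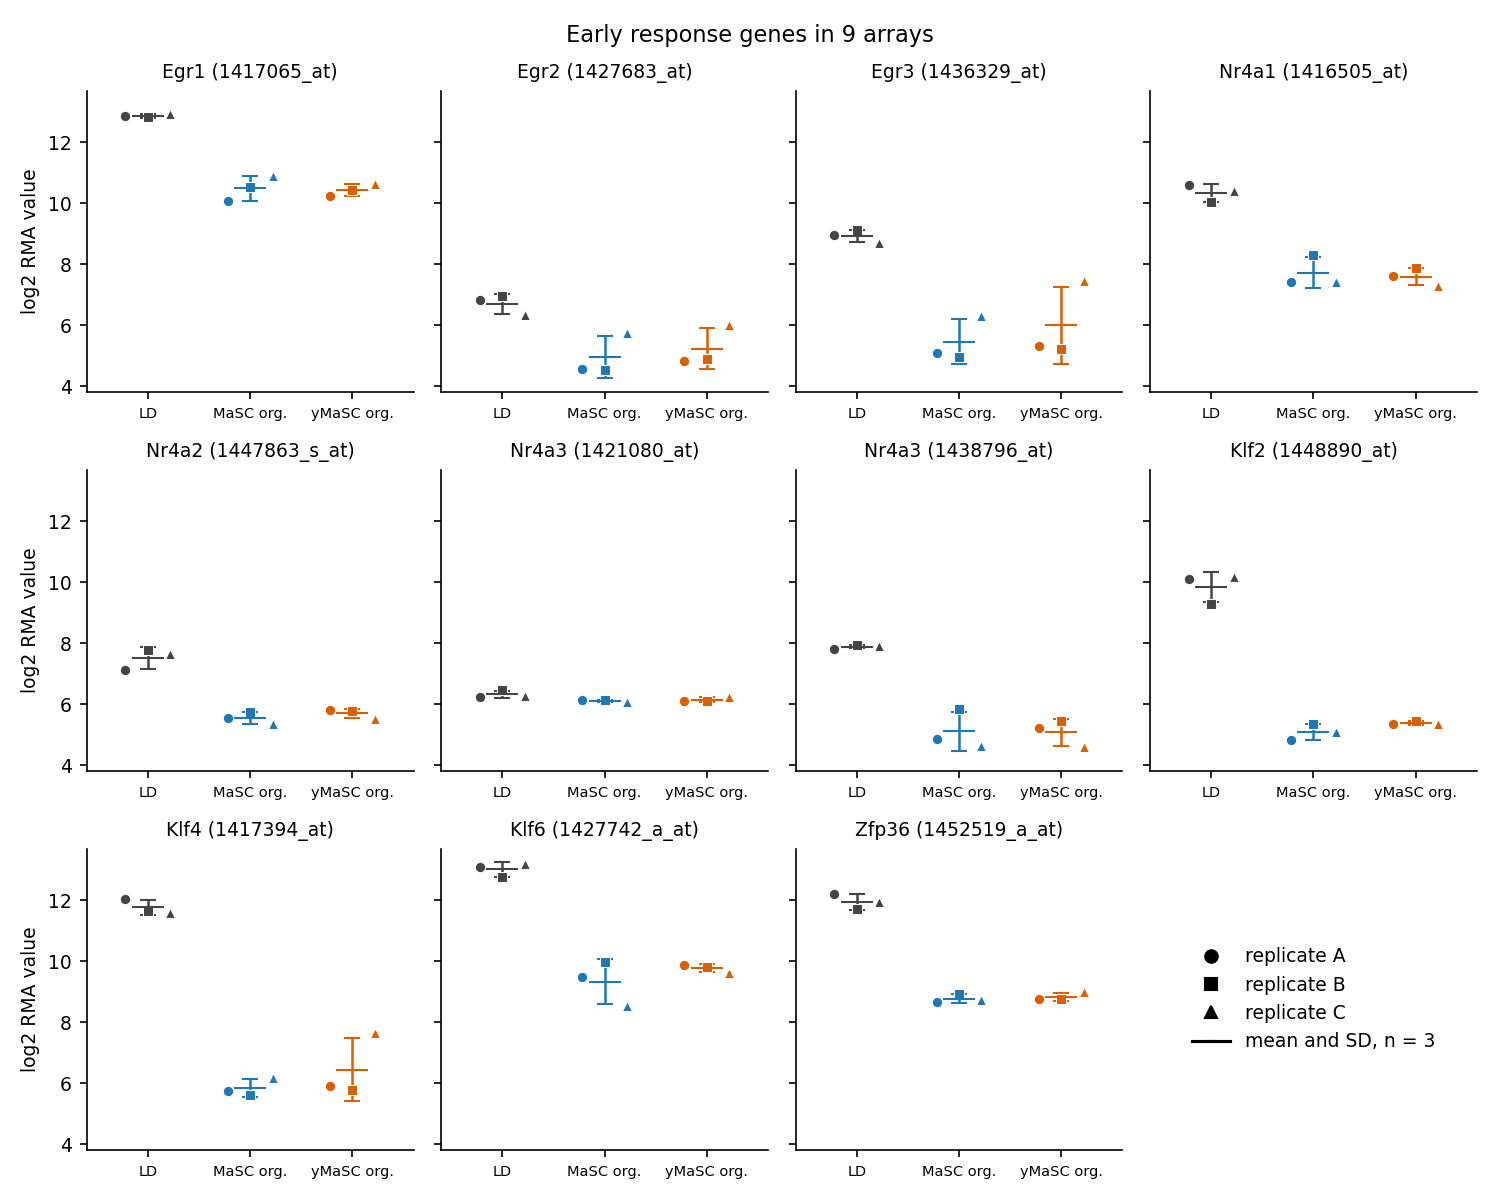
Log2 RMA values of the 10 genes in the 9 arrays (points; circle, square and triangle for replicates A, B and C), with the mean and SD of each group of 3; LD are LD cells, MaSC org. and yMaSC org. the organoids. Nr4a3 has 2 panels, the probe set with its highest mean (6.08 to 6.46 over all arrays) and 1438796_at (7.82 to 7.93 in LD cells and 4.59 to 5.84 in organoids).

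Among the Egr factors, Egr1 is the best known immediate early transcription factor of epithelial and stromal cells. Its log2 values were 12.85, 12.82 and 12.93 in LD cells, 10.07, 10.53 and 10.88 in MaSC-derived organoids, and 10.25, 10.43 and 10.63 in yMaSC-derived organoids, for A, B and C in this order throughout. LD cells stood 5.18-fold above MaSC-derived organoids (log2 difference -2.37, 95% interval -2.81 to -1.93, adjusted p = 3.72e-05) and 5.39-fold above yMaSC-derived organoids (-2.43, adjusted p = 3.68e-05). Egr1 varied more among MaSC-derived organoids (SD 0.41) than among LD cells (SD 0.06), where the 3 arrays nearly coincided.

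Egr3 measured 8.97, 9.11 and 8.70 in LD cells with probe set 1436329_at, 5.09, 4.97 and 6.31 in MaSC-derived organoids, and 5.33, 5.21 and 7.45 in yMaSC-derived organoids. The C organoids were the highest of each kind, yet below every LD array. The differences were -3.47 (11.1-fold, adjusted p = 0.00173) and -2.93 (7.62-fold, adjusted p = 0.00436). A second Egr3 probe set, 1421486_at, ran from 6.15 to 6.36 in LD cells and from 5.77 to 5.99 in organoids, a change of only -0.42 and -0.33, so that the size of the fall depended on the probe set.

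Egr2, an Egr factor known for its roles in myelination and lymphocytes, was the member with the least secure call. Its values were 6.82, 6.96 and 6.32 in LD cells, 4.55, 4.54 and 5.75 in MaSC-derived organoids, and 4.81, 4.88 and 6.0 in yMaSC-derived organoids. The lowest LD value and the highest organoid values, all from letter C, were close but did not overlap. Egr2 differed by -1.75 (3.37-fold, adjusted p = 0.00906) in MaSC-derived and by -1.47 (2.77-fold, adjusted p = 0.0212) in yMaSC-derived organoids. The latter call was lost without LD A (adjusted p = 0.0625), LD B (adjusted p = 0.0632), yOrg A (adjusted p = 0.0771) or yOrg B (adjusted p = 0.0781), and without both C organoids the difference was -1.86 (adjusted p = 0.000524). Over all settings tried its adjusted p ran from 0.000524 to 0.0781.

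Nr4a1, also known as Nur77, responds to growth factors, stress and antigen receptor signals. It measured 10.60, 10.03 and 10.39 in LD cells, 7.43, 8.30 and 7.43 in MaSC-derived organoids, and 7.61, 7.87 and 7.30 in yMaSC-derived organoids. The highest organoid value, 8.30 in MaSC-derived organoids B, stayed below the lowest LD value of 10.03. The differences were -2.62 (6.15-fold, 95% interval -3.22 to -2.02, adjusted p = 0.000109) and -2.75 (6.71-fold, adjusted p = 9.66e-05).

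Nr4a2 (Nurr1), a receptor required for dopaminergic neurons and an early response gene in many cells, has 6 probe sets. With 1447863_s_at it measured 7.12, 7.78 and 7.66 in LD cells, 5.53, 5.74 and 5.34 in MaSC-derived organoids, and 5.80, 5.76 and 5.52 in yMaSC-derived organoids. LD cells were higher by 3.95-fold (log2 difference -1.98, adjusted p = 7.57e-05) and 3.55-fold (-1.83, adjusted p = 0.000126). The 6 probe sets differed by -2.21 to -0.20 in MaSC-derived and by -1.97 to -0.38 in yMaSC-derived organoids. The smallest change was that of 1433422_at, with values of 3.71 to 4.25 over all arrays, whose adjusted p was 0.152 in the former and 0.0152 in the latter comparison.

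Nr4a3 (Nor1), the third receptor of the family, was the 1 gene not called. Its probe set with the highest mean, 1421080_at, measured 6.25, 6.46 and 6.28 in LD cells and 6.08 to 6.25 in organoids, with differences of -0.22 (95% interval -0.44 to 0.00, adjusted p = 0.115) and -0.18 (-0.40 to 0.04, adjusted p = 0.187). Probe set 1438796_at of the same gene measured 7.82, 7.93 and 7.90 in LD cells, 4.85, 5.84 and 4.64 in MaSC-derived organoids, and 5.22, 5.44 and 4.59 in yMaSC-derived organoids. There LD cells were 6.84-fold and 6.96-fold above the organoids (-2.77 and -2.80, both adjusted p = 0.000204). The third, 1421079_at, ran from 2.82 to 3.52 over all arrays, and its LD and organoid values overlapped.

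Klf4, a factor of terminal epithelial differentiation and 1 of the pluripotency reprogramming factors, had the largest difference of the 10 genes. It measured 12.05, 11.65 and 11.59 in LD cells, 5.75, 5.60 and 6.17 in MaSC-derived organoids, and 5.92, 5.76 and 7.64 in yMaSC-derived organoids. LD cells were 60.7-fold above MaSC-derived organoids (-5.92, 95% interval -6.93 to -4.91, adjusted p = 2.46e-05), the fall of rank 12 among 18194 genes. Against yMaSC-derived organoids they were 40.0-fold higher (-5.32, 95% interval -6.33 to -4.31, adjusted p = 4.53e-05), rank 18. The second Klf4 probe set gave -5.99 and -5.59, so both read the same size of change.

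Klf2, a factor of quiescent endothelium and naive lymphocytes, measured 10.12, 9.28 and 10.16 in LD cells, 4.81, 5.36 and 5.09 in MaSC-derived organoids, and 5.34, 5.46 and 5.36 in yMaSC-derived organoids. The 6 organoid arrays lay between 4.81 and 5.46 and did not pass the letter test given further on (adjusted p = 0.307). Klf2 was 27.2-fold (-4.77, 95% interval -5.31 to -4.23, adjusted p = 4.26e-06) and 22.1-fold (-4.47, adjusted p = 5.93e-06) higher in LD cells, with ranks of 38 and 44 among the falls. The median over all probe sets was 5.11 to 5.15 on these arrays, and the values carry no detection call. How far background enters the organoid values of Klf2 and Klf4, and so the size of their folds, was not tested.

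Klf6, a broadly expressed factor induced by injury and cytokines, has 5 probe sets that all fell, by 3.13 to 4.09 on the log2 scale in MaSC-derived organoids and by 2.92 to 3.77 in yMaSC-derived organoids. With 1427742_a_at it measured 13.09, 12.75 and 13.20 in LD cells, 9.48, 9.99 and 8.52 in MaSC-derived organoids, and 9.87, 9.81 and 9.62 in yMaSC-derived organoids. The lowest value was that of MaSC-derived organoids C, and the yMaSC-derived organoids varied less among themselves (SD 0.13 against 0.75). The differences for this probe set were -3.68 (12.8-fold, adjusted p = 5.32e-05) and -3.25 (9.49-fold, adjusted p = 0.000109).

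Zfp36 measured 12.20, 11.70 and 11.93 in LD cells, 8.66, 8.94 and 8.73 in MaSC-derived organoids, and 8.76, 8.75 and 8.98 in yMaSC-derived organoids. The organoids varied little (SD 0.15 and 0.13), and the lowest LD array, B, lay far above the highest organoid array, yMaSC-derived organoids C. LD cells were 8.98-fold (-3.17, 95% interval -3.50 to -2.83, adjusted p = 3.24e-06) and 8.65-fold (-3.11, adjusted p = 4.29e-06) higher.

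**Figure D2:**
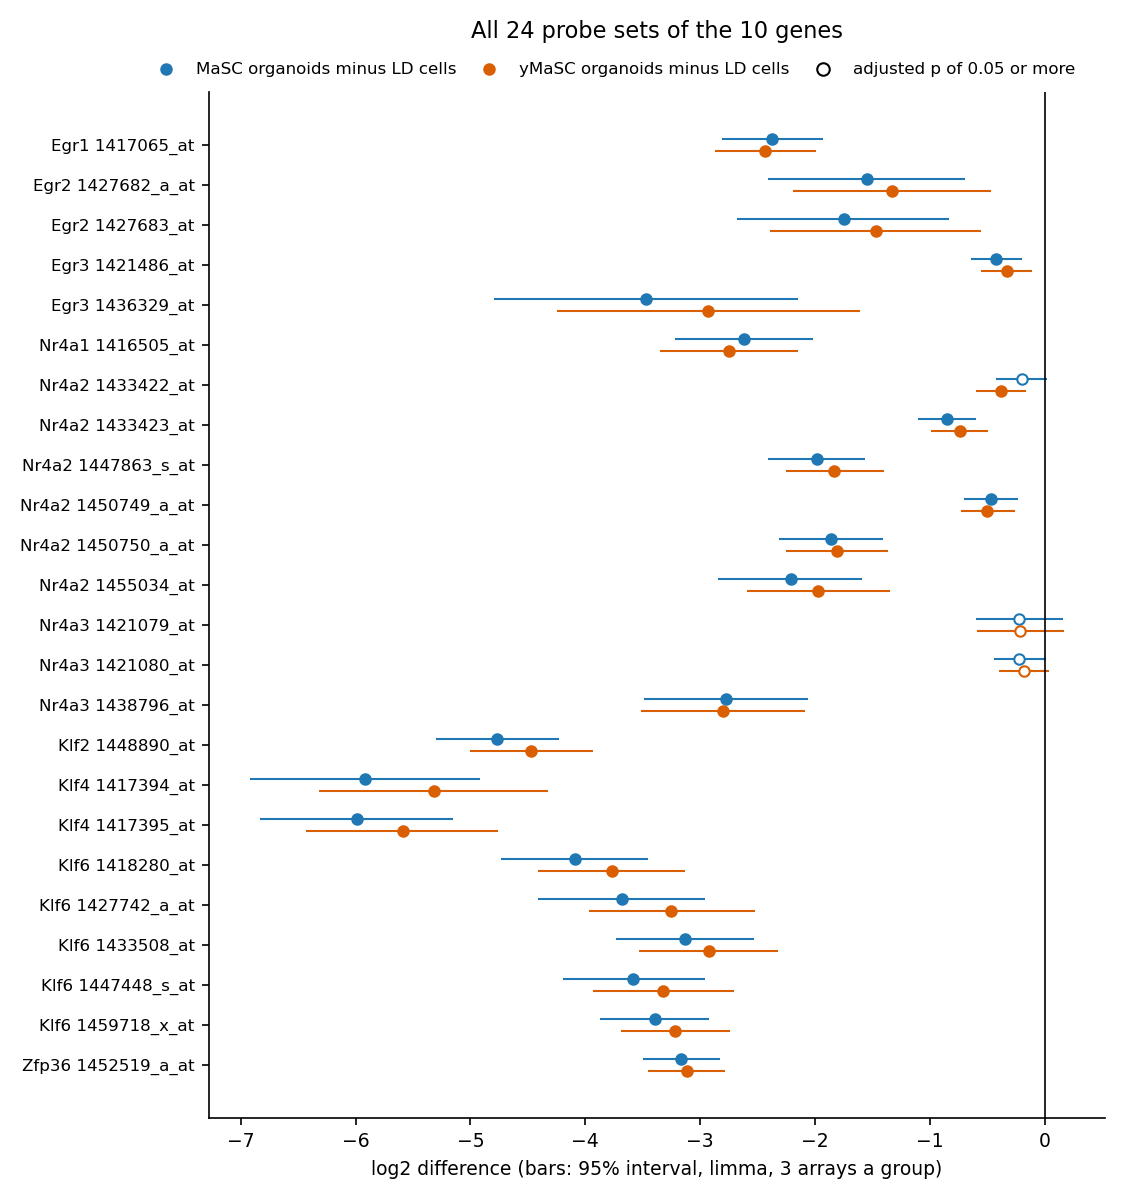
Log2 difference of each of the 24 probe sets, MaSC-derived organoids minus LD cells in blue and yMaSC-derived organoids minus LD cells in orange, with 95% intervals from limma (3 arrays a group); open circles have an adjusted p of 0.05 or more. All points lie left of 0, from -5.99 for Klf4 to -0.18 for Nr4a3.

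The 2 kinds of organoid were then compared with each other, since yMaSC-derived organoids descend from LD cells and MaSC-derived organoids do not. By limma 0 of the 10 genes and 0 of the 24 probe sets differed at an adjusted p below 0.05, and 0 at an unadjusted p below 0.05. Over the whole array 0% of genes and 0% of probe sets were called, so the lack of calls among the members is that of the array as a whole. The median difference, yMaSC-derived minus MaSC-derived, was 0.22, and 5 of 24 probe sets were below 0. For Egr1, Nr4a1, Nr4a2, Nr4a3, Klf2 and Zfp36 the 95% interval stayed within 1 log2 unit on either side, for example 0.05 (-0.28 to 0.39) for Zfp36 and 0.16 (-0.27 to 0.58) for Nr4a2. They were wider at Egr3 (0.54, -0.79 to 1.87), Klf4 (0.60, -0.41 to 1.61), Egr2 (0.28, -0.65 to 1.21) and Klf6 (0.44, -0.29 to 1.17). These intervals leave the letter out, so the spread between letters is part of them.

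Within letters and with 1 probe set a gene, yMaSC-derived organoids were above MaSC-derived organoids in all 3 pairs for 5 genes. These were Egr2, Egr3, Nr4a2, Klf2 and Klf4, where 10.2% of all genes were above in all 3. They were followed by 0 members below in all 3, a count for which the share over all genes was not computed. The second probe sets of Egr3 and Klf4 were also above in all 3. That of Egr2 was not (0.60, -0.03 and 0.09). Nr4a2 1433422_at was below in all 3 (-0.22, -0.05 and -0.27), and the remaining Nr4a2 probe sets changed sign between letters. The differences in A, B and C were 0.26, 0.34 and 0.25 for Egr2, 0.24, 0.24 and 1.14 for Egr3, 0.53, 0.10 and 0.27 for Klf2 and 0.17, 0.16 and 1.47 for Klf4. With the letter as a replicate block in the 6 organoid arrays, limma called 0 members and 0 of all genes, and 3 members (Egr2, Egr3 and Klf2) had an unadjusted p below 0.05, as did 3.28% of all genes. The 95% intervals of this fit were 0.10 to 0.47 for Egr2, 0.04 to 1.04 for Egr3, 0.03 to 0.57 for Klf2, -0.11 to 1.31 for Klf4 and -0.17 to 1.04 for Klf6. The adjusted p of each of these 5 was 0.964. In letter C alone, yMaSC-derived organoids exceeded MaSC-derived organoids by 1.47 for Klf4, 1.14 for Egr3 and 1.10 for Klf6, each a difference between 1 array and 1 array, while in A and B the same genes differed by -0.18 to 0.39.

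Organoids of the same letter varied together, and the letter was tested over the 6 organoid arrays with the kind of organoid as a covariate. Egr2 (adjusted p = 0.00839) and Egr3 (adjusted p = 0.0333) were called by limma's F test, 2 of 10 genes where 5.52% of all genes were called. As probe sets the count was 2 of 24, beside 4.24% of all probe sets. The second probe sets of both genes were not called. In Egr3 1421486_at the C organoids lay 0.02 above the mean of A and B (adjusted p = 0.708), and in Egr2 1427682_a_at 0.94 above (adjusted p = 0.0567). The C organoids lay above the mean of A and B by 1.73 for Egr3, 1.18 for Egr2, 1.15 for Klf4 (adjusted p = 0.149) and 0.44 for Egr1 (adjusted p = 0.107). They lay below it for Klf6 (-0.72, adjusted p = 0.254), Nr4a3 probe set 1438796_at (-0.72) and Nr4a1 (-0.44, adjusted p = 0.101), so the members did not shift one way between letters. Leaving out any 1 of the 6 organoid arrays took the count from 2 to 0, although without both C organoids the same 9 genes were called lower than in LD cells in each comparison.

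The C organoids also carried more mRNA of dividing cells. Mki67, the Ki-67 antigen, measured 8.37 and 8.30 in the C organoids, 5.28 and 5.39 in A and 4.92 and 4.88 in B (adjusted p of the letter = 0.00153). Among LD cells it was 8.82, 6.09 and 8.36. All 4 measured markers of dividing cells were called between letters, and 0 of the 4 between organoids and LD cells. Between letters 5.52% of all genes were called. The summed levels of basal and of hormone-sensing luminal markers were higher in the C organoids as well. Of the basal markers, Trp63 and Mylk were not highest in C among yMaSC-derived organoids. Trp63 measured 8.77 in C against 8.96 and 8.66 in A and B, and Mylk 8.59 against 8.61 and 8.84. The log2 summed level of the 7 basal markers was 13.29 in MaSC-derived organoids C against 11.58 and 11.52 in A and B, and 12.53 in yMaSC-derived organoids C against 11.78 and 11.63, and 2 of the 7 were called between letters. That of the 4 hormone-sensing markers measured was also highest in C, at 12.23 in MaSC-derived organoids (lowest in B, 10.27) and 11.41 in yMaSC-derived organoids (10.90 and 10.59 in A and B), and again 2 were called. The part of cell division and of these cell types in the members' values was not tested.

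**Figure D3:**
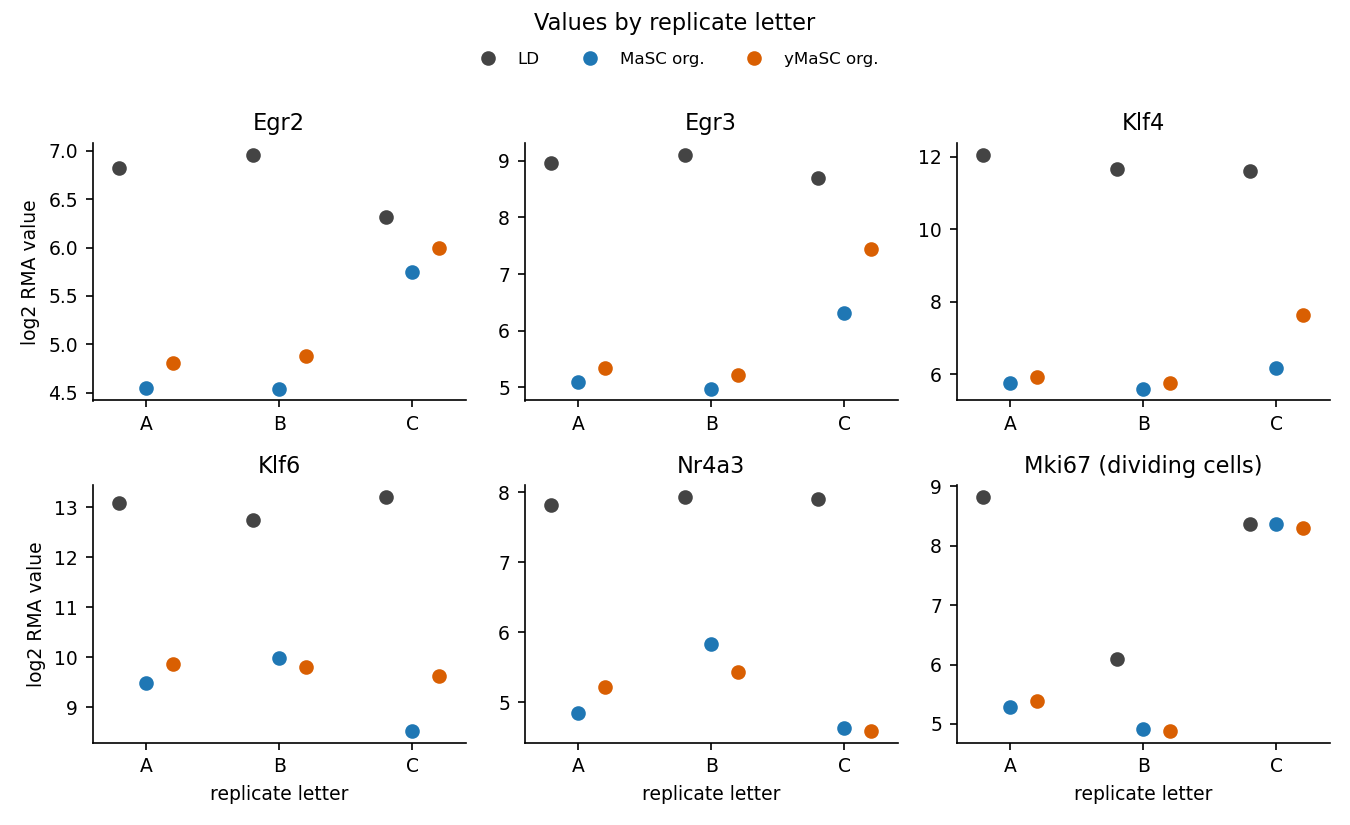
Log2 RMA values of Egr2, Egr3, Klf4, Klf6 (probe sets with the highest mean), Nr4a3 (1438796_at) and the proliferation marker Mki67 for replicate letters A, B and C, with LD cells in grey, MaSC-derived organoids in blue and yMaSC-derived organoids in orange; each point is 1 array and each panel has its own scale. Both C organoids lie above the A and B organoids for Egr2, Egr3, Klf4 and Mki67, and each is the lowest of its kind for Klf6 and Nr4a3.

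The marker genes of the cell types that a sort could hold moved as well. LD cells had the luminal keratins Krt8 and Krt18 at 14.09 to 14.26, and 6 of 7 luminal and 3 of 4 hormone-sensing luminal markers were lower in both kinds of organoid, while 5 and 6 of 7 basal markers were higher. Over all genes, 15.2% were called lower and 22.1% higher in MaSC-derived organoids, and 14.3% and 21.6% in yMaSC-derived organoids. The same shares stand beside the counts of all lists below. The sort took EpCAM-positive cells not stained by a cocktail of antibodies against blood lineages, per the study's methods. All 12 leukocyte markers were lower in MaSC-derived and 11 of 12 in yMaSC-derived organoids. The medians of their differences were -1.81 and -1.59. Their log2 summed level was 9.91 to 10.60 in LD cells, 8.03 to 8.27 in MaSC-derived and 7.98 to 8.68 in yMaSC-derived organoids, and Ptprc, the common leukocyte antigen CD45, measured 8.17 to 8.94 in LD cells and 2.64 to 2.99 in organoids. Leukocytes express several of the members, Klf2 among them, and their part in the LD values was not tested. In bulk RNA, fewer cells of a type and less RNA per cell cannot be told apart.

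Endothelial markers set LD B apart. Their log2 summed level was 9.67 in LD B, 8.38 and 8.40 in LD A and C, and 7.43 to 7.53 in organoids, and 1 of 10, Vwf, was called lower in organoids. Vwf was alike in LD A, B and C, at 7.25, 7.23 and 7.05. Klf2, the member known best from endothelium, was lowest in LD B (9.28) and higher in LD A (10.12) and C (10.16). The part of endothelial cells in the Klf2 values was not tested. The log2 summed level of fibroblast markers was also highest in LD B, at 12.50. It was 10.54 and 11.12 in LD A and C, and 9.61 to 11.25 in organoids. Decorin (Dcn) was the highest of them in every array, at 12.10 in LD B and 9.06 to 11.06 in organoids. There Col1a2 and Col3a1 measured 3.44 to 4.22 and 2.56 to 2.92. Among LD arrays Pdgfra (5.08 to 5.18) and Pdgfrb (4.38 to 4.53) varied little. Of the 8 markers, 3 (Col1a2, Col3a1 and lumican) were lower and 1 (Pdgfra) higher in organoids of both kinds. Without LD B, 9 members were still called lower in MaSC-derived and 8 in yMaSC-derived organoids, Egr2 being the one lost.

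Other primary response genes were described in the same way, from a list of 45 of which 44 were measured. In MaSC-derived organoids 32 were lower and 1 higher, and in yMaSC-derived organoids 33 and 1, with median differences of -1.96 and -1.82. Of all genes, 15.2% and 14.3% were called lower and 22.1% and 21.6% higher. Fosb, an AP-1 factor, measured 11.25 to 11.41 in LD cells and 3.23 to 4.02 in organoids (-7.65 and -7.60, adjusted p = 2.93e-07 and 3.24e-07). Fosl1 differed by -5.97 and -5.65 (adjusted p = 9.52e-06 and 1.31e-05), and Atf3, a stress-induced factor, by -6.05 and -5.11 (adjusted p = 2.47e-05 and 6.32e-05). Fos itself, at 13.56 to 13.77 in LD cells, was 11.20 to 11.66 in organoids. Id1, a target of BMP signalling, was the 1 gene called higher (2.87 and 2.96, adjusted p = 0.00386 and 0.00346). In the letter test 13 of the 44 were called, where 5.52% of all genes were.

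**Figure D4:**
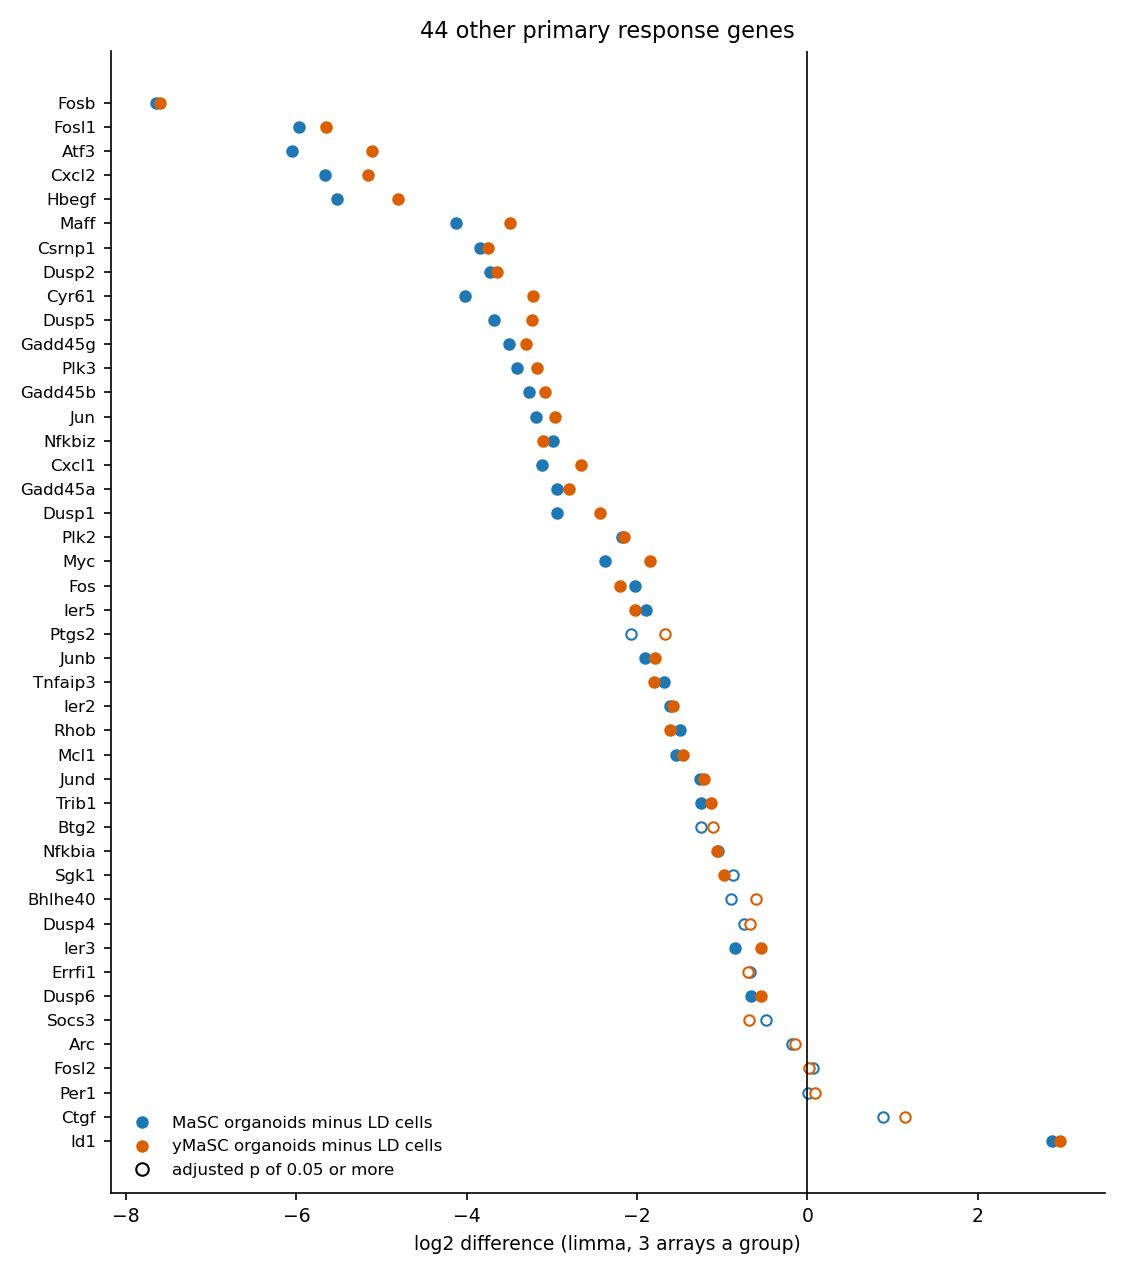
Log2 differences of the 44 other primary response genes measured, MaSC-derived organoids minus LD cells in blue and yMaSC-derived organoids minus LD cells in orange (limma, 3 arrays a group); open circles have an adjusted p of 0.05 or more. Most points lie left of 0, Fosb lowest at -7.65 and -7.60, and Id1 alone is called to the right at 2.87 and 2.96.

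Family relatives of the members moved less uniformly. Of 13 other Klf genes measured, 6 were lower and 2 higher in each kind of organoid, with medians of -0.20 and -0.24. The shares over all genes were 15.2% and 14.3% lower and 22.1% and 21.6% higher. Klf5, a factor of proliferating epithelium, differed by -3.06 and -2.85 (adjusted p = 5.91e-06 and 8.06e-06), and Klf10 and Klf11, both induced by TGF-beta, by -2.20 and -2.21 and by -1.92 and -1.99. The 2 that were higher were Klf3 and Klf15. Of the Egr relative Egr4 and the Egr co-repressors Nab1 and Nab2, Nab1 was lower (-0.45 and -0.42), and Egr4 measured 5.94 to 6.19 in LD cells and 5.84 to 5.94 in organoids. Zfp36l2, a relative of Zfp36 with the same RNA-binding fold, was higher in organoids (1.18 and 1.18, adjusted p = 0.0259 and 0.027), opposite in sign to Zfp36, and Zfp36l1 was not called (-0.19 and -0.30).

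Upstream of these genes, Srf was lower in both kinds of organoid (-1.49 and -1.34, adjusted p = 0.000356 and 0.00069), Mkl2, an SRF coactivator, was higher (1.76 and 1.59) and Crem, of the CREB family, was lower (-1.11 and -0.90). Mkl1, a relative of Mkl2, was lower (-0.61 and -0.69), and Creb1 was higher (0.62 and 0.52). In all, 4 of 11 upstream factors were lower and 2 higher in each comparison, with medians of -0.34 and -0.42. Of 13 measured genes of the ERK pathway, 5 were higher and 3 lower in MaSC-derived organoids and 5 and 4 in yMaSC-derived organoids, with medians of -0.21 and -0.18. Beside both lists, 15.2% and 14.3% of all genes were called lower and 22.1% and 21.6% higher. Egfr, the receptor for the EGF in the medium, was higher (1.54 and 1.35), Fgfr2 was lower (-2.80 and -2.98), and so was the feedback inhibitor Spry1 (-1.46 and -1.17). The related inhibitors Spry4 (0.91 and 1.22) and Spred1 (0.65 and 0.57) were higher, and Spry2 and Spred2 were not called. These are mRNA levels, and pathway activity was not measured.

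Known targets were read next, beside 15.2% and 14.3% of all genes called lower and 22.1% and 21.6% called higher. Of 9 genes known from other cells as Egr1 targets (medians -1.65 and -0.91), 4 were lower in MaSC-derived and 5 in yMaSC-derived organoids and 0 higher, led by Plaur, the urokinase receptor (-5.78 and -5.52), Icam1 (-3.70 and -3.60) and tissue factor F3 (-2.71 and -2.49). Of 8 Klf2 and Klf4 targets (medians -1.88 and -1.76), 6 were lower in each, among them Krt4 (-3.91 and -4.24), Sprr1a (-2.36 and -2.35) and the cell cycle inhibitor Cdkn1a (-2.33 and -1.84). Zfp36 promotes the decay of its target mRNAs. Of 11 such targets (medians -1.73 and -1.53), 8 and 7 were lower in organoids, where Zfp36 was lower too, and 0 were higher. Il6 led them (-5.87 and -5.95), but its LD values ran from 6.01 in C to 11.44 in B, and Cxcl2 (-5.67 and -5.16) and Cxcl1 (-3.12 and -2.66) were also highest in LD B. Many of these genes are early response genes themselves, as the members are, and the lists share genes. Cxcl1, Cxcl2, Ptgs2 and Ier3 are Zfp36 targets that are also among the other primary response genes. Vegfa is on both the Egr1 and the Zfp36 target list, and Krt19 and Cdh1 are also luminal markers. The counts therefore partly repeat the same genes.

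Genes of heat shock and protein folding, which respond to stress by another route, gave 2 of 9 lower and 1 higher in each comparison, with median differences of -0.30 and -0.16. Calls over all genes were 15.2% and 14.3% lower and 22.1% and 21.6% higher. Dnajb1 was lower (-1.26 and -1.21), whereas the inducible Hspa1a and Hspa1b measured 10.58 to 10.91 and 12.17 to 12.52 in LD cells and 10.01 to 10.85 and 12.16 to 13.41 in organoids and were not called.

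The genes whose values over the 9 arrays were most like the members' mean profile, after each gene was centred on its own mean, were Fam3b, the ion channel gene Trpm6, Ifrd1, the mast cell carboxypeptidase gene Cpa3 and the ubiquitin protease gene Usp43, at root mean square distances of 0.16 to 0.19 log2 units. Their differences between organoids and LD cells were -2.95 to -2.71 in MaSC-derived and -2.72 to -2.51 in yMaSC-derived organoids. No member was among the 10 nearest genes of any other member. The values were not scaled, so this distance depends on the size of the fall, which ran from -5.92 for Klf4 to -0.22 for Nr4a3. It therefore does not show whether the members varied together. The nearest gene of Egr3 was Gadd45a (0.29), which was also highest in the C organoids (9.58 and 9.92, against 7.88 to 8.28 in the others), and that of Klf6 was Plk3 (0.23), both of them on the list of other primary response genes. The nearest of Klf4 was Plac8 (0.34), of Klf2 Mlf1 (0.29), of Egr1 Cdt1 (0.15), of Nr4a1 Trim16 (0.20) and of Zfp36 Egflam (0.16). For Egr2 it was Padi4 (0.21), for Nr4a2 Arf2 (0.12) and for Nr4a3 Tbr1 (0.04). Apart from Gadd45a and Plk3, none of these nearest genes is on that list.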

How the data were processed

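Total RNA was extracted with Trizol, labelled as biotinylated cRNA and hybridized to Affymetrix arrays. The deposited values are on the log2 scale and were made by the authors with RMA, per the labels, which fits the signals of the probes of a probe set after background correction and normalization between arrays; the sources used here give no version of it. The median of the 9 arrays was 5.11 to 5.15 and the number of arrays, 3 a group, limits the precision. Of 45101 probe sets, 34958 have 1 gene symbol, 932 several and 9211 none, and only those with 1 symbol were used. The value table holds 0 columns of other samples.

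Linear models were fitted in limma 3.58.1 (R 4.3.3) to all 9 arrays, with 1 probe set a gene (the highest mean) or with every probe set, and p-values were adjusted by Benjamini-Hochberg over all genes or probe sets. An adjusted p below 0.05 is a call. The methods at hand name no test for these arrays. Letters were tested over the 6 organoid arrays with a limma F test. Deviations from group means of organoids with the same letter correlated at 0.607 to 0.649 across genes, and those of LD cells with organoids at -0.0462 to 0.0453, so the letters pair the organoids only; this is a check on the data, as the labels name no shared day or animal. Replicates are biological replicas per the labels. No batch is named.

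The 10 members and all gene lists were chosen with earlier results of these data known. Named genes are the members, up to 3 of each list with the largest differences called in both comparisons, and a few others named for comparison after their values were seen: Fos, Id1, Klf3, Klf15, Egr4, Zfp36l1, Hspa1a, Hspa1b, Mkl1, Creb1, Spry2, Spry4, Spred1, Spred2 and the markers Krt8, Krt18, Ptprc, Mki67, Pdgfra, Pdgfrb and Dcn. The 5 genes nearest to the members' mean profile are named by that distance. The nearest genes of single members (Gadd45a, Plk3, Plac8, Mlf1, Cdt1, Trim16, Egflam, Padi4, Arf2 and Tbr1) were added after their values were seen. Alternatives were other normalizations, filters, priors, array weights, a replicate block and leaving out arrays. Promoter sequences and gene positions are from RefSeq (GRCm38.p6). The scripts were tested on simulated data.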

Additional observations from a re-analysis of the deposited data

How the results depend on the processing

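The number of members called lower stayed between 7 and 10 of 10 in both comparisons with LD cells: 7 when genes below the median of mean values were left out, which took Egr2, Nr4a2 and Nr4a3 out of the test, and 10 after quantile normalization or with the mean of all probe sets. With the letter as a replicate block the counts were 9, 9 and 0, as without it, and in the organoid arrays alone the block gave 0 called between organoids. Nr4a3 passed the threshold in MaSC-derived organoids after cyclic loess (-0.34), quantile normalization (-0.37), a common median (-0.32) and with the mean of its probe sets (-1.07), and in yMaSC-derived organoids after quantile normalization (-0.34) and with that mean (-1.06). Called probe sets numbered 15 to 22 and 15 to 23; Egr2, Egr3 1421486_at and Nr4a2 1433422_at were those lost in yMaSC-derived organoids in some settings. The letter count was 2, 1 with that filter (Egr3, as Egr2 was not tested) and 0 to 0 with 1 organoid array left out. Between organoids no setting called a member, and signs of small differences turned: with array weights Egr1 was 0.07, Nr4a1 0.02 and Nr4a3 -0.01, and without both C organoids Egr1 was 0.04, Nr4a3 -0.03 and Zfp36 -0.04. With 1 array left out, the ranges were -0.27 to 0.14 for Egr1, -0.10 to 0.69 for Egr2, -0.19 to 0.97 for Egr3, -0.27 to 0.16 for Nr4a1, -0.01 to 0.07 for Nr4a3, 0.00 to 0.94 for Klf4 and -0.02 to 0.14 for Zfp36. The cause of these changes was not tested. The RMA values carry no detection call, so a low value cannot be told from background.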
